A study of Mus musculus with 8 samples.

Results

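WNT signalling genes were followed in SV-LECs, a mouse lymphatic endothelial line, with and without TGFβ1. The set was taken from the count table by gene symbol. It holds every numbered WNT ligand, Frizzled receptor, SFRP, DKK and R-spondin gene, the co-receptor genes Lrp5 and Lrp6, the receptor genes Ror1 and Ror2, the antagonist gene Wif1, the feedback genes Axin2, Nkd1 and Nkd2, and the factor genes Lef1 and Tcf7. This gave 51 of the 55471 genes in the table. SV-LECs are an SV40-immortalized line derived from mesenteric adventitial tissue, and all 8 libraries come from this single line. In 4 libraries the cells had received no treatment, and in the other 4 they had been kept for 72 h with TGFβ1 at 10 ng/ml. The study's methods call the samples of each group technical replicates, so the errors and p-values given here describe technical spread alone. The question asked of each gene was whether its RNA differed between TGFβ1-treated and untreated cells.

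WNT proteins are secreted, lipid-modified ligands that bind Frizzled receptors on nearby cells. With the co-receptors LRP5 or LRP6 they stabilize β-catenin, which acts with TCF/LEF factors on target genes such as Axin2, and with ROR receptors they act on cell movement and polarity without β-catenin. R-spondins strengthen the signal by keeping Frizzled receptors at the cell surface, whereas SFRPs and WIF1 bind WNT proteins outside the cell and DKK1, DKK2 and DKK4 bind the LRP co-receptors. In endothelium this signalling is known for its part in vessel growth, barrier formation and the development of lymphatic valves.

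Total counts per library were between 18952504 and 26386941. Levels are given as CPM, counts relative to a normalized library size, or as RPKM, CPM per kilobase of annotated exon, where genes are compared with each other. A count of 3 in a library lay between 0.113 and 0.162 CPM, which covers counting error only. With edgeR's likelihood ratio test and an FDR threshold of 0.05, 75.6% of the 13818 genes tested were changed, 37.6% higher and 38.0% lower after TGFβ1. All 7 tested genes of an 8-gene list of TGFβ responses rose, and all 6 proliferation genes fell, with summed levels of 1988 to 2082 CPM in untreated and 866 to 917 CPM in treated libraries. The endothelial label was only in part borne out by markers. Of 9 lymphatic markers, Pdpn, Nrp2 and Flt4 were expressed and 6 were under 1 CPM on average, Prox1 and Lyve1 among them with at most 3 counts in each library. Of 11 general endothelial markers 8 were under 1 CPM, with 0 counts for Erg and Tie1 in every library and at most 2 for Cdh5. Kdr, Esam and Egfl7 were expressed, with means of 11.6, 2.85 and 5.83 CPM in untreated cells. Their means in treated cells were 22.1, 3.77 and 4.79 CPM, and Kdr and Esam were called higher and Egfl7 lower. Of 12 fibroblast and mural markers 10 were tested, 7 rose and 2 fell, and their summed level was 8863 to 11197 CPM in untreated and 12662 to 14064 CPM in treated libraries. The largest parts of this sum were Col1a2, which did not pass the threshold, and Col1a1, which is also in the list of TGFβ responses. Col1a1 rose from a mean of 3459 to 6057 CPM, and the genes that fell were Dcn (312 to 83.0 CPM) and Pdgfra (160 to 57.8 CPM). Of 6 leukocyte markers 2 were tested, Cd68 and Csf1r, and both were called higher, Csf1r after passing the count filter through the treated libraries alone, with summed levels of 6.02 to 8.25 CPM in untreated and 16.1 to 18.5 CPM in treated libraries, and Adgre1 had 0 counts in every library. The part of these shifts in the results below was not tested, and in bulk RNA fewer cells of a kind and less RNA per cell cannot be told apart.

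The main changes among the WNT signalling genes were a rise of some ligands, foremost Wnt4 and Wnt9a, together with a fall of other ligands, of both expressed R-spondins and of Sfrp1, Sfrp2 and Sfrp4. Of the 51 genes, 33 had enough counts to be tested. Among these 13 were significantly higher and 13 significantly lower after TGFβ1, each 39.4% of those tested, which is close to the background of 37.6% and 38.0% over all genes. The median log2 fold change was 0.01, against -0.01 over all genes. A log2 fold change below -1 was reached by 10 of the 33 genes (30.3%), against 6.56% of all genes tested. A log2 fold change above 1 was reached by 6 (18.2%), against 10.9%. Of these 6, Dkk3 passed the count filter through the treated libraries alone and Fzd9 mainly through them. Wnt16, among the 10, met the filter through the untreated libraries. These genes reached the test wholly or mainly through the group in which they were high, so both shares are descriptions only. In 24 of the 33 genes (72.7%) the groups did not overlap, against 69.8% of all genes. For groups without overlap the exact two-sided permutation test of the group means always gives p = 0.0286, the smallest that 4 libraries against 4 allow. That value therefore adds nothing to the count of such genes. The plot of fold changes shows the 33 genes by role.

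**Figure D1:**
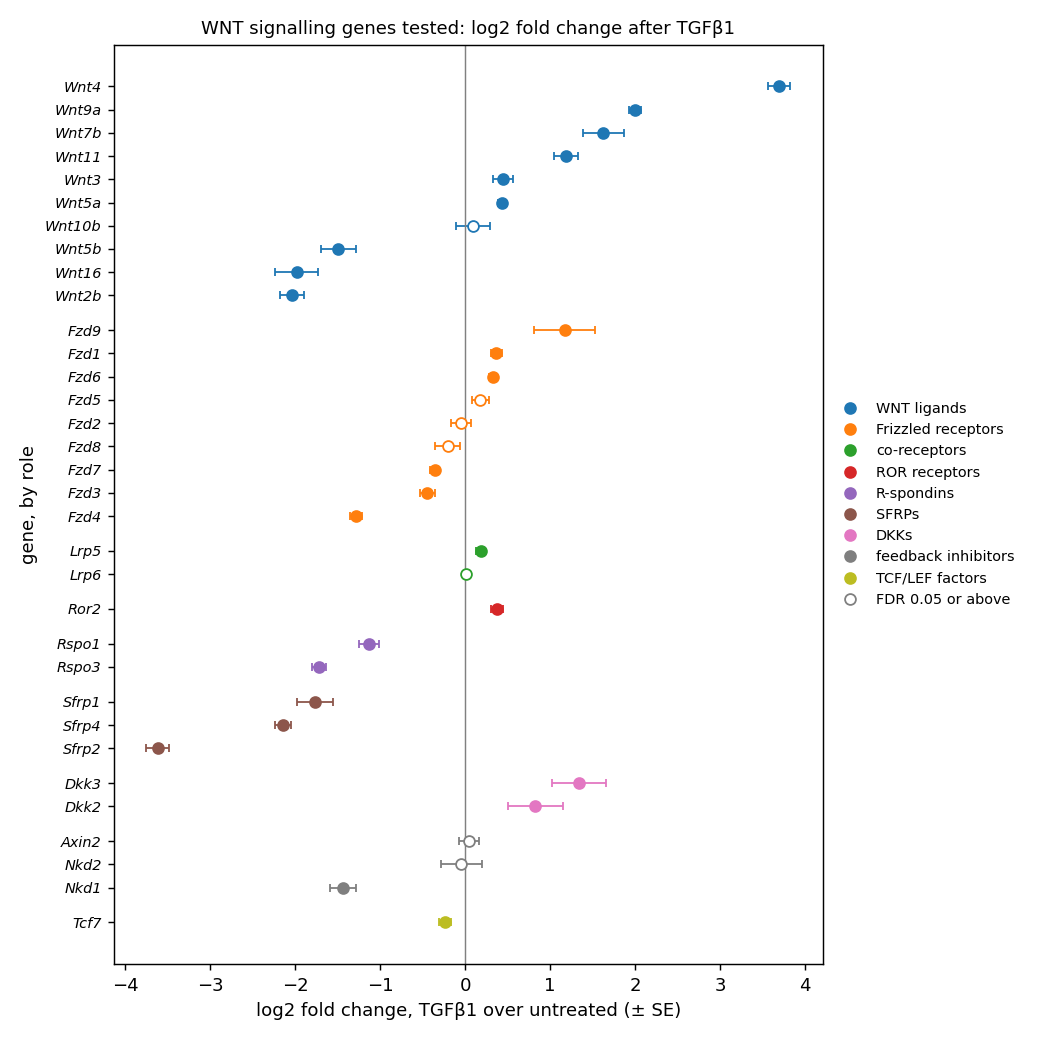
Log2 fold change (TGFβ1 over untreated, horizontal axis) of the 33 WNT signalling genes tested, ordered by role on the vertical axis; bars are the standard errors of the fit and open circles are genes with an FDR of 0.05 or above. Wnt4 lies farthest to the right at 3.69 and Sfrp2 farthest to the left at -3.62.

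Of the 19 WNT ligand genes 10 were tested, and 6 of these rose, 3 fell and 1 did not pass the threshold. Wnt4, which encodes a ligand known from kidney and reproductive tract development, lies on chromosome 4 of GRCm38 from 137277489 to 137299726. Its level was 2.75, 2.25, 2.36 and 2.08 CPM in the untreated libraries 1 to 4 and 26.8, 35.1, 30.7 and 29.7 CPM in the treated libraries. The groups were far apart, and the mean rose from 2.36 ± 0.283 to 30.6 ± 3.41 CPM (SD, n = 4), a log2 fold change of 3.69 (SE 0.131, FDR = 8.72e-207 from edgeR). Wnt9a (chromosome 11, 59306928 to 59333552), a ligand active in joint formation, had 27.7, 28.6, 29.9 and 26.5 CPM in untreated and 99.5, 115, 123 and 114 CPM in treated libraries. It thus rose in every treated library above every untreated library, with a log2 fold change of 2.00 (SE 0.0676, FDR = 7.55e-186 from edgeR). Wnt7b, a ligand known from lung and brain vessel development, had 1.20, 0.789, 1.48 and 0.913 CPM in untreated and 2.22, 4.33, 3.74 and 3.22 CPM in treated libraries. The treated libraries were again all higher but spread more widely, and the log2 fold change was 1.63 (SE 0.239). Wnt11, a ligand of the β-catenin-independent branch, ranged from 2.18 to 3.61 CPM in untreated and from 6.33 to 7.53 CPM in treated libraries, a log2 fold change of 1.19 (SE 0.137).

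**Figure D2:**
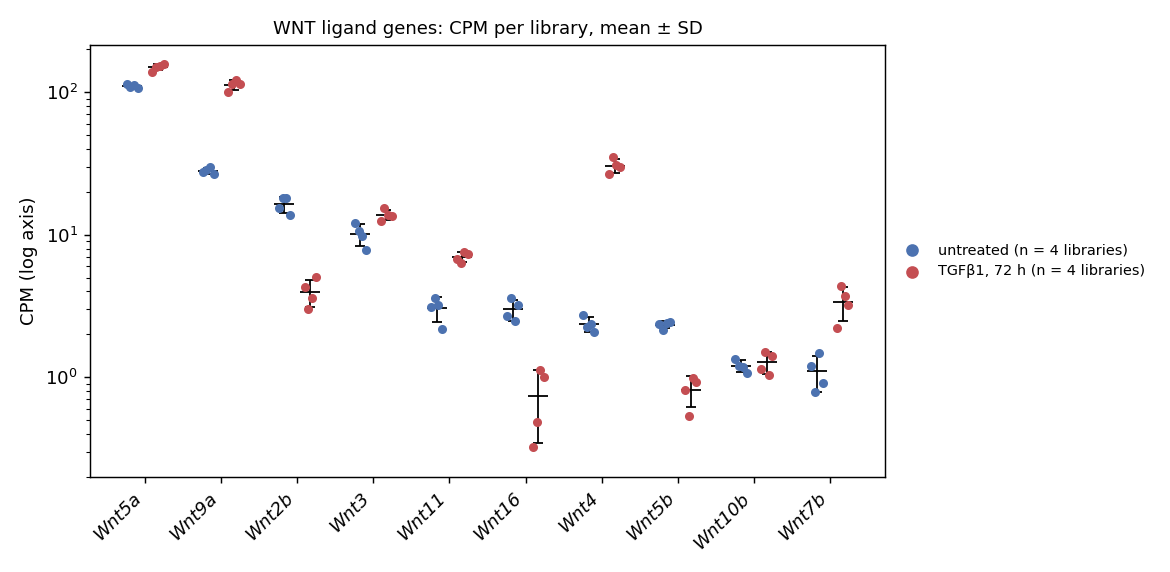
CPM (log axis) of the 10 WNT ligand genes tested, ordered by their mean in untreated cells; each point is a library, and black marks are the mean and SD of 4 libraries. Wnt4 moves from 2.36 to 30.6 CPM on average and Wnt2b from 16.4 to 3.97, while Wnt10b overlaps between the groups.

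The promoters of the genes with the largest rises and of the gene with the largest fall are shown to give the sequence that lies before them. Promoter sequences come from RefSeq on GRCm38.p6, whose table held 35 of the 51 genes, but not Wnt7b and Sfrp4. Each is the forward strand, 5′ to 3′, and ends where the annotated transcript of RefSeq or GENCODE begins, whichever comes first, so that for Wnt4 only the stretch before the earlier GENCODE start is shown. Capitals mark matches to CTTTGA (the core of TCF/LEF sites), CAGAC (the core of SMAD sites) or GTCTAGAC (a palindromic SMAD site), searched on both strands, and none of these strings contains another.
Wnt4, chr4:137277385-137277488: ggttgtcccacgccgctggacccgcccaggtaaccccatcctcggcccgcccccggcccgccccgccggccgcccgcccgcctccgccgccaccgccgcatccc
Wnt9a, chr11:59306680-59306927: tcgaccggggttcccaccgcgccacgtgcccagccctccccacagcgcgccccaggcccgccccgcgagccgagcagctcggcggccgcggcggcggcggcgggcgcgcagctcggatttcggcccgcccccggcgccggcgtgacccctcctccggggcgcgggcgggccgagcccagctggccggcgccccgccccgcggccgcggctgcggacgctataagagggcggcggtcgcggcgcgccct
Sfrp2, chr3:83766071-83766320: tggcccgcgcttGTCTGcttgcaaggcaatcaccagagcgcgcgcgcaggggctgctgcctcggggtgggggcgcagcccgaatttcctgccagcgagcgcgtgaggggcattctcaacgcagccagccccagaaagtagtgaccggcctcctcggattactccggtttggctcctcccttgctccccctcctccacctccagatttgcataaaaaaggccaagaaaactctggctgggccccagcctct
In the 250 bases before the RefSeq start the search gave 1 match for Sfrp2, to CAGAC on the reverse strand and beginning 238 bases before the start, and none for Wnt4, Wnt9a or Wnt2b. Over 32851 promoter windows of that length CTTTGA was found in 13.8%, CAGAC in 42.2% and GTCTAGAC in 0.167%, so the single match is of a kind that is common. The G and C content of these windows was 85.2% for Wnt4 and 84.4% for Wnt9a, with 44 and 48 CpG dinucleotides. It was 80.8% for Wnt2b, which fell, with 36 CpG dinucleotides, and 63.6% for Sfrp2, with 16. The medians over all windows were 52.4% and 6 CpG dinucleotides.

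Wnt5a, the best-known ligand of the β-catenin-independent branch and a ligand of ROR2, was the most abundant WNT ligand in CPM. It had 114, 109, 113 and 108 CPM in untreated and 139, 151, 152 and 158 CPM in treated libraries. The groups did not overlap, but the rise was small, a log2 fold change of 0.44 (SE 0.0480, FDR = 3.25e-19 from edgeR). Of its exon bases 4.58% are shared with the antisense gene Gm2670, which had 6 to 26 counts per library. Wnt7b, Wnt11, Fzd5, Fzd6, Lef1 and Axin2 also share exon bases with another gene, of at most 8 counts in a library. Wnt3, a ligand that acts through β-catenin, ranged from 7.86 to 12.05 CPM in untreated and from 12.44 to 15.38 CPM in treated libraries, a log2 fold change of 0.45 (SE 0.117, FDR = 0.000205 from edgeR).

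Wnt2b, Wnt16 and Wnt5b fell. Wnt2b (chromosome 3, 104945272 to 104961921), a ligand that acts through β-catenin, had 15.5, 18.2, 18.0 and 13.8 CPM in untreated and 4.27, 3.02, 3.59 and 5.01 CPM in treated libraries. All treated libraries were lower, with a log2 fold change of -2.04 (SE 0.142, FDR = 2.11e-46 from edgeR). Wnt16, a ligand known from bone, ranged from 2.49 to 3.61 CPM in untreated and from 0.325 to 1.13 CPM in treated libraries, a log2 fold change of -1.98 (SE 0.255). It was over the level of the count filter in all 4 untreated but only 2 treated libraries, so it met the filter through the untreated group. Wnt5b, the closest paralog of Wnt5a, moved in the opposite direction to it, from 2.33 ± 0.132 to 0.816 ± 0.200 CPM (SD, n = 4), a log2 fold change of -1.49 (SE 0.205). Wnt10b, a ligand known to restrain fat cell formation, had 1.20 ± 0.117 CPM in untreated and 1.27 ± 0.222 CPM in treated cells (SD, n = 4) and did not pass the threshold (log2 fold change 0.09, SE 0.202, FDR = 0.685 from edgeR).

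Per kilobase of exon, the summed RNA of the 19 ligand genes was 30.8 to 34.4 RPKM in untreated and 62.7 to 73.2 RPKM in treated libraries. In untreated cells the order of levels was Wnt5a with 14.2 ± 0.395 RPKM, Wnt9a with 8.46 ± 0.426, Wnt2b with 3.90 ± 0.496 and Wnt3 with 3.28 ± 0.570 (SD, n = 4), and the last pair did not differ beyond their spread. In treated cells it was Wnt9a with 33.8 ± 2.89 RPKM, Wnt5a with 19.2 ± 1.02, Wnt4 with 7.29 ± 0.812 and Wnt3 with 4.49 ± 0.395 (SD, n = 4). The ratio of Wnt9a to Wnt5a in RPKM was 0.571 to 0.621 in untreated and 1.68 to 1.89 in treated libraries, so the leading ligand differed between the groups in every library. Of the summed ligand RPKM, Wnt9a made up 25.4% ± 0.774 in untreated and 48.5% ± 1.22 in treated cells. Wnt4 made up 1.68% ± 0.156 and 10.4% ± 0.790 and Wnt2b 11.7% ± 1.06 and 1.37% ± 0.334 in the same order (SD, n = 4). The share of Wnt5a was 42.5% ± 1.51 in untreated and 27.5% ± 0.987 in treated cells (SD, n = 4), although its own level rose.

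**Figure D3:**
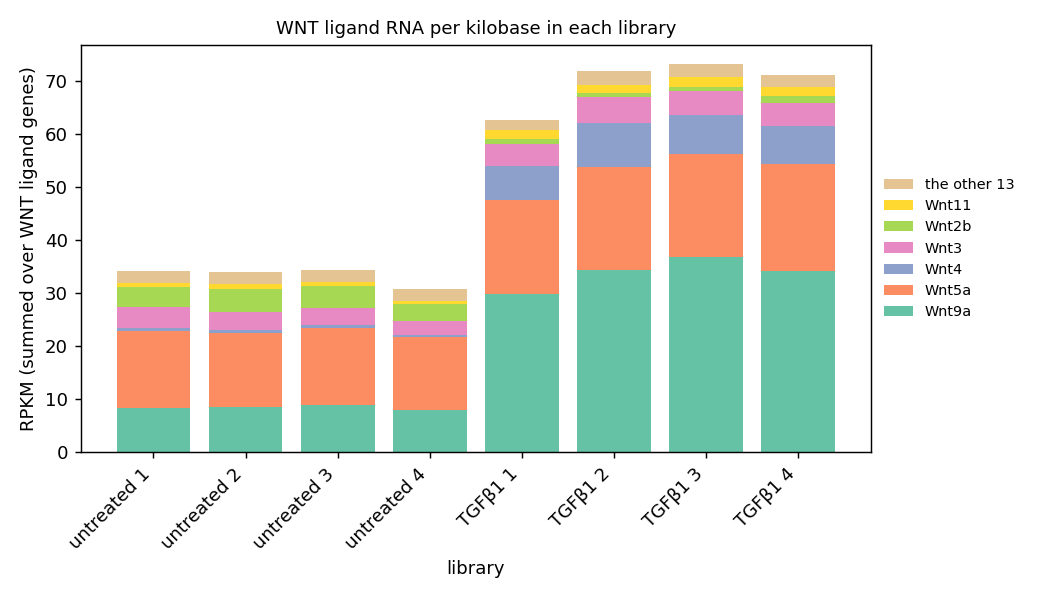
Summed RPKM of the 19 WNT ligand genes in each library (vertical axis), stacked by gene, with the 13 genes of low level joined as the other 13. The 4 treated libraries reach 62.7 to 73.2 RPKM against 30.8 to 34.4 in the untreated ones, and the bands of Wnt9a and Wnt4 are the ones that widen most.

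Among the ligands under the count filter, Wnt2, which in the embryo takes part in lung formation, had 0, 1, 0 and 0 counts in untreated and 9, 22, 9 and 21 counts in treated libraries. The ratio of summed counts, scaled to the normalized library sizes as are the other ratios of counts here, was 64.5, with a 95% exact interval from counting error of 11.1 to 2589. Wnt10a, a ligand known from tooth and hair development, had 1, 1, 2 and 2 counts in untreated and 5, 6, 11 and 9 in treated libraries, a ratio of 5.46 (95% exact interval 2.25 to 16.02). In both genes the treated libraries were all higher. Wnt6 had 1 to 5 counts in untreated and 4 to 7 in treated libraries. Wnt7a, Wnt8a and Wnt8b had 0 to 5 counts in any library, and Wnt1, Wnt3a and Wnt9b no more than 3, so they were not detectable or close to that limit at this depth.

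Of the 10 Frizzled receptor genes 9 were tested, and 3 rose, 3 fell and 3 did not pass the threshold, with a median log2 fold change of -0.05. Fzd4 (chromosome 7, 89404355 to 89413134), the receptor of norrin and a known regulator of retinal vessels, had 35.5, 35.6, 35.1 and 32.8 CPM in untreated and 16.2, 13.2, 13.7 and 14.2 CPM in treated libraries. It was lower in all treated libraries, with a log2 fold change of -1.28 (SE 0.0689, FDR = 5.28e-78 from edgeR). The other changes among abundant Frizzled genes were small. Fzd7 fell from 71.9 ± 1.79 to 56.2 ± 3.62 CPM and Fzd3, a receptor of planar polarity and axon guidance, from 16.3 ± 0.946 to 11.97 ± 1.27 CPM (SD, n = 4), log2 fold changes of -0.36 and -0.44. Fzd1 rose from 68.5 ± 6.24 to 88.3 ± 4.88 CPM and Fzd6, also a receptor of planar polarity, from 72.5 ± 1.71 to 90.9 ± 2.49 CPM (SD, n = 4), log2 fold changes of 0.37 and 0.33. Fzd9, the least expressed Frizzled gene tested, had 4 to 10 counts in untreated and 8 to 19 in treated libraries, and with groups that overlapped its log2 fold change was 1.17 (SE 0.363, FDR = 0.00121 from edgeR). It was over the level of the count filter in 3 treated libraries but in only 1 untreated library, so it reached the test mainly through the treated group.

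Fzd2, Fzd5 and Fzd8 did not pass the threshold. Fzd2 had 78.3, 59.5, 55.6 and 57.0 CPM in untreated and 55.9, 49.2, 62.0 and 74.5 CPM in treated libraries, so its spread within each group was wider than the difference of the means (log2 fold change -0.05, SE 0.123). Fzd8 ranged from 16.99 to 25.97 CPM in untreated and from 14.5 to 21.5 CPM in treated libraries (log2 fold change -0.20, SE 0.147). Fzd5 ranged from 11.1 to 14.0 CPM in untreated and from 13.3 to 16.9 CPM in treated libraries (log2 fold change 0.18, SE 0.0984, FDR = 0.0920 from edgeR). Fzd10 had 0, 0, 1 and 0 counts in untreated and 1, 4, 2 and 6 in treated libraries, a ratio of 13.7 (95% exact interval 2.06 to 584). Per kilobase, Fzd2, Fzd1, Fzd7 and Fzd6 led in untreated cells with 17.1 ± 2.90, 16.3 ± 1.49, 15.9 ± 0.396 and 15.1 ± 0.355 RPKM (SD, n = 4). The first 3 did not differ beyond their spread, and the mean of Fzd6 lay within the spread of Fzd2 and Fzd1. In treated cells Fzd1 led with 21.0 ± 1.16 RPKM. The summed Frizzled level was 72.6 to 84.3 RPKM in untreated and 71.6 to 84.1 RPKM in treated libraries, ranges that nearly coincide.

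Of the co-receptors of the β-catenin branch, Lrp5 rose slightly and Lrp6 did not pass the threshold. Lrp5 ranged from 104 to 114 CPM in untreated and from 117 to 130 CPM in treated libraries, a log2 fold change of 0.18 (SE 0.0485, FDR = 0.000332 from edgeR). Lrp6 had 150 ± 4.14 CPM in untreated and 151 ± 4.15 CPM in treated cells (SD, n = 4), a log2 fold change of 0.01 (SE 0.0412). Ror2, a receptor tyrosine kinase for WNT5A, rose from 25.4 ± 2.13 to 33.1 ± 1.87 CPM (SD, n = 4), a log2 fold change of 0.38 (SE 0.0695, FDR = 1.10e-07 from edgeR). Its paralog Ror1 was under the count filter, with 5 to 9 counts in untreated and 7 to 23 in treated libraries, a ratio of 2.27 (95% exact interval 1.42 to 3.73). In CPM its treated libraries were all above the untreated ones, which is a comparison without an FDR.

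**Figure D4:**
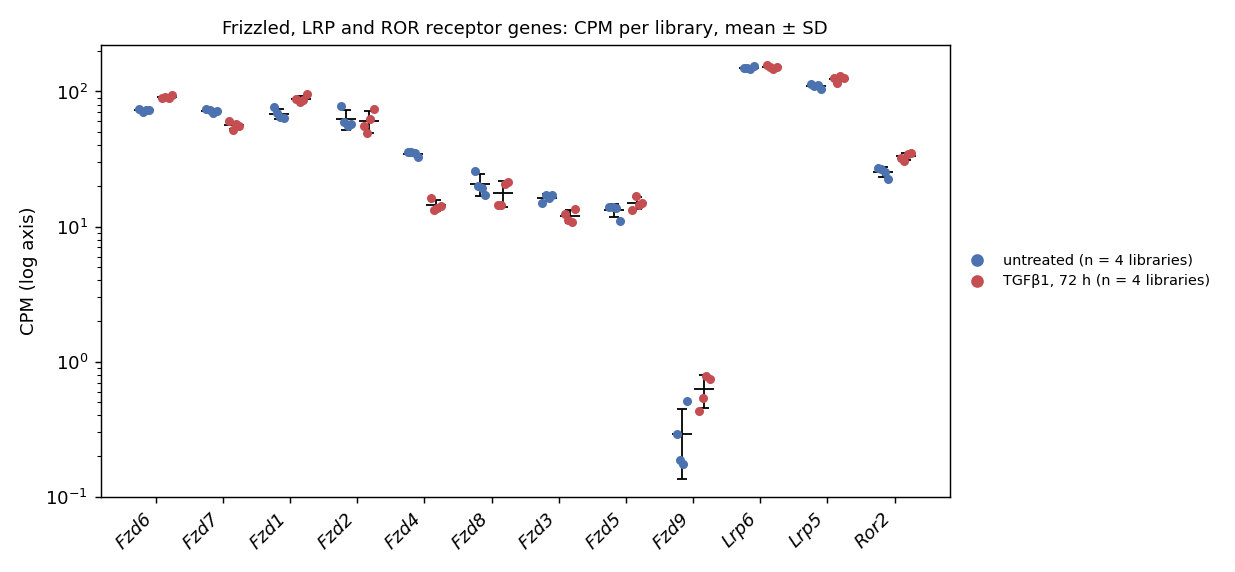
CPM (log axis) of the 9 Frizzled receptor genes tested, of Lrp6 and Lrp5 and of Ror2; each point is a library, and black marks are the mean and SD of 4 libraries. Fzd4 falls from 34.7 to 14.3 CPM on average, and the points of Fzd2, Fzd5, Fzd8 and Lrp6 overlap between the groups.

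Both expressed R-spondin genes fell. Rspo3 (chromosome 10, 29452416 to 29535867), an R-spondin known for its role in vessel development, had 105, 124, 102 and 90.4 CPM in untreated and 31.1, 31.3, 33.7 and 31.5 CPM in treated libraries. Its treated libraries lay close together and far below the untreated ones, with a log2 fold change of -1.73 (SE 0.0830, FDR = 1.31e-91 from edgeR). Of its exon bases 13.1% are shared with the antisense gene Gm48159, which had at most 2 counts in a library. Rspo1 (chromosome 4, 124986430 to 125009099), a factor of ovary development, had 22.0, 21.9, 18.8 and 16.3 CPM in untreated and 10.2, 7.40, 9.55 and 9.005 CPM in treated libraries, a log2 fold change of -1.13 (SE 0.118, FDR = 5.14e-21 from edgeR). Per kilobase the summed R-spondin RNA was 37.7 to 51.6 RPKM in untreated and 13.9 to 15.8 RPKM in treated libraries. Rspo3 accounted for 77.0% ± 1.41 of it in untreated and 68.9% ± 2.90 in treated cells (SD, n = 4). Rspo2 had 0 to 4 counts and Rspo4 at most 1 count per library.

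Of the secreted antagonists Sfrp1, Sfrp2 and Sfrp4 fell, and Frzb, a further SFRP gene described below them, did not pass the threshold. Dkk3 and Dkk2 passed as higher at far lower levels, with limits given beside their counts. Sfrp2 (chromosome 3, 83766321 to 83774316), whose promoter is printed above, had 48.6, 41.4, 32.9 and 36.9 CPM in untreated and 3.52, 3.12, 3.35 and 3.07 CPM in treated libraries. This was the largest fall among the 33 genes tested, from a mean of 39.9 ± 6.72 to 3.26 ± 0.209 CPM (SD, n = 4), a log2 fold change of -3.62 (SE 0.135, FDR = 5.35e-164 from edgeR). It shares 16.1% of its exon bases with the antisense gene Gm26771, which had at most 1 count in a library. Sfrp4 (chromosome 13, 19623104 to 19632994), an antagonist known from bone, had 32.4, 28.2, 28.0 and 27.4 CPM in untreated and 6.49, 6.23, 6.05 and 7.34 CPM in treated libraries, a log2 fold change of -2.14 (SE 0.0928, FDR = 4.26e-124 from edgeR). Sfrp1 ranged from 2.89 to 4.34 CPM in untreated and from 0.689 to 1.35 CPM in treated libraries, a log2 fold change of -1.77 (SE 0.213). The summed level of Sfrp1, Sfrp2, Sfrp4 and Sfrp5 was 22.7 to 31.3 RPKM in untreated and 3.14 to 3.50 RPKM in treated libraries, and with Frzb included it was 30.5 to 40.97 and 10.7 to 12.5 RPKM. The ratio of Sfrp2 to Sfrp4 in RPKM was 2.28 to 2.91 in untreated and 0.811 to 1.07 in treated libraries. Sfrp5 had 0 counts in every library, which allows up to 0.162 CPM at the smallest library.

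The symbol Frzb, which encodes the remaining SFRP (sFRP3), falls outside the naming pattern of the set and was looked up after the values of the others were seen. It had 31.3, 28.4, 25.1 and 29.4 CPM in untreated and 24.6, 24.5, 28.5 and 29.2 CPM in treated libraries. The groups overlapped and the gene did not pass the threshold (log2 fold change -0.09, SE 0.0818, FDR = 0.303 from edgeR). Per kilobase it had 8.81 ± 0.804 RPKM in untreated and 8.25 ± 0.779 RPKM in treated cells (SD, n = 4), so that in treated cells its level was above the sum of the other SFRP genes.

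Dkk3, a divergent DKK family member, had 6 to 10 counts in untreated and 17 to 22 in treated libraries. It passed the count filter of the test through the treated libraries alone, so that a higher level was a condition of its test (log2 fold change 1.34, SE 0.314). Dkk2, which binds LRP co-receptors, had 11, 12, 5 and 7 counts in untreated and 15, 18, 10 and 16 in treated libraries. It was over the filter's level in all 4 treated libraries but in only 1 untreated library. Its groups overlapped in CPM, and its log2 fold change of 0.83 (SE 0.321, FDR = 0.0117 from edgeR) was the least certain of the calls: it was not significant with DESeq2 (FDR = 0.0628), without untreated library 3 (FDR = 0.0718 from edgeR) or without TGFβ1 library 2 (FDR = 0.0536 from edgeR). Dkk1, Dkk4 and Wif1 had at most 1 count in any library, and Dkk4 had none.

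Of the genes that mark the response to WNT, Nkd1 and Tcf7 fell and Axin2 and Nkd2 did not pass the threshold. Nkd1 (chromosome 8, 88521354 to 88594884), which encodes a feedback inhibitor that binds Dishevelled, had 6.65, 7.10, 5.11 and 6.29 CPM in untreated and 2.06, 2.14, 2.61 and 2.45 CPM in treated libraries. The groups were apart, with a log2 fold change of -1.44 (SE 0.151, FDR = 7.34e-22 from edgeR). Axin2, a feedback inhibitor and the most widely used β-catenin target, had 7.61, 6.27, 6.29 and 5.43 CPM in untreated and 6.82, 6.96, 6.84 and 5.94 CPM in treated libraries. Its groups overlapped and it did not pass the threshold (log2 fold change 0.05, SE 0.118, FDR = 0.724 from edgeR). Nkd2, the paralog of Nkd1, had 0.941 ± 0.0321 CPM in untreated and 0.910 ± 0.236 CPM in treated cells (SD, n = 4; log2 fold change -0.04, SE 0.236). Tcf7, which encodes the factor TCF1, fell from 18.76 ± 0.545 to 15.95 ± 0.968 CPM (SD, n = 4), a log2 fold change of -0.23 (SE 0.0701, FDR = 0.00136 from edgeR). Lef1 had 0 to 5 counts per library and was not tested.

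**Figure D5:**
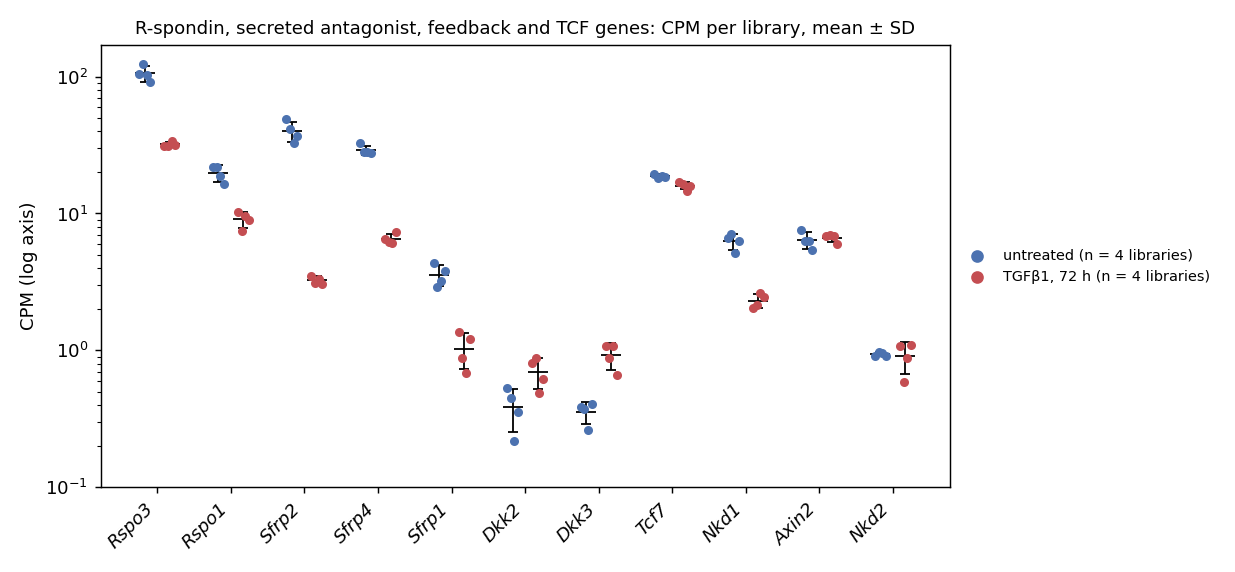
CPM (log axis) of R-spondin, SFRP, DKK, TCF and feedback genes; each point is a library, and black marks are the mean and SD of 4 libraries. Rspo3, Rspo1, Sfrp1, Sfrp2 and Sfrp4 fall without overlap of the groups, Axin2 and Nkd2 overlap, and Dkk2 and Dkk3 lie near or below 1 CPM.

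The other genes of the pathway were read from lists that do not include the genes above. Of 79 listed genes 68 were tested, 27 rose, 26 fell and 15 did not pass the threshold. The 53 changed genes are 77.9% of those tested, against 75.6% of all genes, and the median log2 fold change was 0.05. Among 12 genes of WNT secretion and of extracellular control, 6 of 10 tested rose and 2 fell. Trabd2b, a membrane protease that inactivates WNT proteins, rose from 9.33 ± 1.19 to 50.5 ± 3.04 CPM (SD, n = 4), a log2 fold change of 2.43. Sostdc1, a secreted WNT and BMP antagonist, fell from 2.99 ± 0.314 to 0.378 ± 0.0820 CPM (SD, n = 4), a log2 fold change of -2.97, having passed the count filter through the untreated libraries alone. Notum, which encodes a secreted enzyme that removes the lipid from WNT proteins, rose by 0.79 on the log2 scale from a mean of 0.776 CPM. Wls, the carrier of WNT proteins to the cell surface, rose by 0.14 from 520 ± 17.3 CPM (SD, n = 4), and Porcn, which attaches their lipid, had a log2 fold change of -0.27 and did not pass the threshold (FDR = 0.0902 from edgeR).

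Of 5 genes for R-spondin receptors and receptor turnover 3 were tested, 2 rose and 1 fell. Lgr6, an R-spondin receptor, rose from 0.242 ± 0.0609 to 2.00 ± 0.292 CPM (SD, n = 4), a log2 fold change of 3.01, having passed the filter through the treated libraries alone. Lgr4, the receptor with the highest CPM of these, rose by 0.26 on the log2 scale from 19.1 ± 0.550 CPM (SD, n = 4). Znrf3, which encodes the ubiquitin ligase that removes Frizzled receptors and is held off by R-spondins, had a log2 fold change of -0.30 and fell. Of the pair under the count filter, Lgr5 had 17, 31, 16 and 9 counts in untreated and 2, 5, 4 and 3 in treated libraries, and Rnf43 had 4, 4, 4 and 5 counts in untreated and 1, 3, 7 and 6 in treated libraries. Among 8 other receptors and cofactors, 2 of 6 tested rose and 4 fell. Tspan12, a partner of FZD4 in norrin signalling, rose from 1.08 ± 0.173 to 4.10 ± 0.287 CPM, and Adgra2, a co-receptor for WNT7 in brain vessels, fell from 138 ± 6.60 to 66.8 ± 5.18 CPM (SD, n = 4). Ptk7, a co-receptor of planar polarity, rose from 381 ± 14.8 to 613 ± 33.0 CPM (SD, n = 4).

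Inside the cell the changes went both ways. Of 11 genes of the β-catenin destruction complex and its regulators 4 rose and 5 fell, with Apc2 (log2 fold change 1.91), Amer1 (-0.80) and Apc (0.78) changed most. Of 8 Dishevelled and casein kinase genes 4 rose and 2 fell, with Dvl3 and Csnk1g1 higher (0.69 and 0.64) and Dvl2 lower (-0.60). Of 13 genes for β-catenin and its nuclear partners 5 rose and 4 fell. Ctnnb1, which encodes β-catenin, rose by 0.14 on the log2 scale from 814 ± 23.1 to 900 ± 19.1 CPM (SD, n = 4). Tcf7l2, a further TCF factor, did not pass the threshold (log2 fold change 0.10, FDR = 0.178 from edgeR). The corepressor genes Tle1 and Tle4 fell (-0.92 and -0.75) and Tle2 rose (0.82). Of 11 planar polarity genes 9 were tested, 1 rose and 4 fell, with Celsr1, Celsr2 and Vangl2 at -1.72, -0.83 and -0.30. Of 11 genes often used as β-catenin targets 8 were tested, 3 rose and 4 fell. Cd44 rose by 1.99 on the log2 scale, and Pdgfra and Bmp4 had log2 fold changes of -1.47 and -1.35. These genes have other regulators as well, and Pdgfra also belongs to the fibroblast and mural markers.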

How the data were processed

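RNA of untreated and TGFβ1-treated SV-LECs was sequenced from stranded poly(A) libraries, 4 per group. Reads had been mapped to GRCm38, and the authors deposited gene counts without normalization. The submitters' processing notes name bcl2fastq 2.20.0.422, STAR 2.7.3a and featureCounts 1.5.1. The strand setting of the counting and the annotation release are not given in the sources used here. Whether reads from exon bases shared with an antisense partner were counted for the gene, for its partner or left out is therefore not known.

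The whole table was fitted with edgeR 4.0.16 under R 4.3.3. The likelihood ratio test (glmFit, glmLRT) and the FDR threshold of 0.05 follow the study's methods. The filter (filterByExpr, minimum count 10) and TMM were chosen here, and Benjamini-Hochberg FDRs cover the 13818 genes tested. The WNT signalling genes were then read from it. Standard errors come from the fitted means and dispersions. RPKM used the exon union of GENCODE M21, which matched 55230 genes. Total counts of 18952504 to 26386941 put 3 counts at 0.113 to 0.162 CPM. Chi-square per degree of freedom was 2.37 to 7.84 over the 12 within-group pairs, so no library was a repeat of another. The scripts were tested on simulated data.

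The genes and lists were chosen with earlier results of these data known, so their counts are descriptions. Of each other pathway list up to 3 genes were named, those past the threshold without overlap between groups and with the largest absolute log2 fold changes, together with Ctnnb1, Porcn, Wls and Tcf7l2. Lgr5, Rnf43, Frzb and single markers were named outside this rule. Alternatives were DESeq2 1.42.0, the quasi-likelihood test, other scalings, filters, prior count and FDR, a replicate block and each library left out in turn.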

Additional observations from a re-analysis of the deposited data

Results flagged for a closer look

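In 5 of 66 groups of 4 libraries (33 genes, 2 groups each) a library stood apart from the other 3 by more than Dixon's 95% limit, and chance gives about 1 in 20. Fzd2 had 78.3 CPM in untreated library 1, with the others between 55.6 and 59.5. Fzd5 had 11.1 CPM in untreated library 4, with the others between 13.8 and 14.0. Sfrp4 had 32.4 CPM in untreated library 1, with the others between 27.4 and 28.2. Rspo3 had 33.7 CPM in TGFβ1 library 3, with the others between 31.1 and 31.5. Axin2 had 5.94 CPM in TGFβ1 library 4, with the others between 6.82 and 6.96. Without the library that stood apart, Fzd2, Fzd5 and Axin2 still did not pass the threshold, and Rspo3 and Sfrp4 still fell.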

How the results depend on the processing

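No log2 fold change of the 33 genes reversed a call, and the 13 lower calls were 13 or 14 under every alternative. The number of higher genes was 21 instead of 13 without the filter on low counts, when 49 of the 51 genes were tested. The 8 added were Wnt1, Wnt2, Wnt3a, Wnt8a, Wnt8b, Wnt10a, Fzd10 and Ror1, and Rspo2 was added as lower (FDR = 0.0489 from edgeR), all with few counts. A filter of 1 CPM in 4 or more libraries left 10 higher genes. Without each library in turn 12 to 15 genes were higher and 13 to 14 lower. Dkk2 lost its call with DESeq2, at an FDR of 0.01 and without untreated library 3 or TGFβ1 library 2. Fzd5 passed without TGFβ1 library 1 (log2 fold change 0.22, FDR = 0.0443 from edgeR) and Fzd8 without TGFβ1 library 4 (log2 fold change -0.31, FDR = 0.0481 from edgeR). The other pathway genes kept 25 to 28 higher and 26 to 29 lower calls. With a replicate block by library number, 13 genes were higher and 13 lower, and over all genes 5075 and 5077. No pairing by number was seen: deviations of same-numbered libraries correlated across genes at -0.158, -0.0785, -0.0366 and -0.271, and no library correlated best with its own number. These correlations also carry the main differences between libraries within a group, so they cannot settle whether libraries were handled in pairs. Without composition factors the median of all genes moved from -0.01 to -0.07. Depth limits the 18 genes that were not tested.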

Other observations

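Fzd2 and Fzd8 were highest in the same library of each group, which was not particular to them. In untreated cells library 1 was highest for both, with 78.3 CPM for Fzd2 and 25.97 for Fzd8, and in treated cells library 4 was, with 74.5 and 21.5 CPM. The same libraries were highest for Fzd1, Fzd6, Wnt5a, Ror2 and Sfrp4, whereas Rspo3 and Lrp6, among others, were highest elsewhere. Library 1 of the untreated and library 4 of the treated group also had the highest scores on the second principal component of log2 CPM over all genes tested (11.6 and 10.2). Fzd6 and Lrp6 differed from Fzd2 and Fzd8 in that they spread little, with 72.5 ± 1.71 and 150 ± 4.14 CPM in untreated cells (SD, n = 4). The cause of the spread was not tested.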
